A study of Mus musculus with 26 samples.

Results

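The genes described here are the epidermal growth factor receptor Egfr, its partner receptor Erbb2, the ligands Ereg, Areg, Hbegf, Tgfa and Btc, and the feedback inhibitor Errfi1. They were chosen by symbol, with earlier results of these data known, so counts set beside the share of all probe sets are descriptions. Every probe set that the array annotation gives to 1 of these genes alone was used. This gave 18 probe sets for 7 of the 8 genes, among 34945 single-gene probe sets for 18193 genes in all. Areg had no single-gene probe set in that annotation and was not analysed here. Where a gene had several probe sets, the one with the highest mean log2 value over all arrays is called its leading probe set.

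The data were 26 Affymetrix arrays of RNA from immortalized mouse embryonic fibroblasts, which are fibroblasts from mouse embryos kept in permanent culture. Each of 3 parental lines, WA, WB and WC, carried v-src (the constitutively active tyrosine kinase of Rous sarcoma virus), human c-myc (a transcription factor) or no insert, in each case in the retroviral vector pBabe-puro. All 9 combinations of line and vector therefore share immortalization, retroviral infection and the pBabe-puro backbone, and the empty vector is the control in each line. Every combination had 3 arrays but one: of v-src in WB, replicates 2 and 3 are described. The series was assembled to test, in transformed mouse fibroblasts, an expression signature of anchorage-independent growth that had been derived from human breast cancer lines. The labels do not say whether a line is 1 clone, or whether the arrays of a combination came from separate infections or cultures. A p-value from within 1 line therefore reflects array-to-array spread that may be technical. Tests of whether an effect, or the empty-vector level, differs between lines rest on the same spread. They cannot tell a difference between parental lines from one between single infections or cultures.

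Egfr is a receptor tyrosine kinase at the cell surface. Its ligands are made as membrane-anchored precursors that are released by metalloproteases of the ADAM family, and ligand binding pairs the receptor with another Egfr or with Erbb2, which has no ligand of its own. The paired receptors signal through adaptors and Ras to the ERK kinases, which switch on immediate early genes as well as negative feedback genes. One of these is Errfi1 (also called Mig6 or RALT), whose protein binds the kinase domain of the active receptor, blocks it and helps to send it for degradation. Src is both activated by Egfr and able to phosphorylate it.

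Array medians lay between 89.0 and 134.6 signal units, and arrays correlated with the others of their combination at 0.9665 to 0.9841. WA with the empty vector, replicate 3, and WC with c-myc, replicate 1, stood lowest in this correlation. Of 8 fibroblast markers, 8 were above the median probe set, and their summed signal was 92234 to 98895 with v-src, 102578 to 107537 with c-myc and 125520 to 145281 with the empty vector. Of 8 epithelial markers, 4 were above the median probe set. The sum of all 8 was 2848 to 5521 with v-src, 1940 to 2942 with c-myc and 1700 to 2873 with the empty vector. Over the 9 group means Cdh1 lay between 25.9 and 105, but Epcam between 492 and 3820 and Krt19 between 91.3 and 1070. Epcam means in WA, WB and WC were 3818, 1429 and 3484 with v-src and 1012, 1624 and 597 with the empty vector. Over the 9 groups the summed signals were 328 to 438 for endothelial, 754 to 989 for blood and 487 to 629 for skeletal muscle markers. Among endothelial markers Pecam1 was at 10.3 to 35.4 and Kdr at 193 to 296. Among blood markers the leukocyte Ptprc was at 30.3 to 56.8 and Csf1r at 397 to 639. Mouse Myc (1424942_a_at) was lower with c-myc than with the empty vector over the lines, with a change of -2.66 on the log2 scale (SE 0.42, 6.33-fold, limma adjusted p = 0.00986), and mouse Src (1423240_at) differed by 0.30 with v-src (SE 0.18, adjusted p = 0.379). Probe sets for mouse transcripts need not match human c-myc or viral src, so these values do not check the vectors.

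With v-src, the feedback inhibitor Errfi1 was higher than with the empty vector in all 3 lines, 5.49-fold to 8.75-fold by its leading probe set. Ereg was also higher within all 3 lines, 1.73-fold to 3.88-fold, but did not pass the test over the lines (limma adjusted p = 0.0802). Its call in WB did not hold without either v-src array of that line. Signals of 3 of the 7 Egfr probe sets fell in all 3 lines, although for 1451530_at the calls in WB and WC were lost without single arrays. With c-myc, no member passed the test over the 3 lines, and Ereg passed it when WB was left out. Within lines, Errfi1 and Hbegf fell in WA and rose in WB, and these differences between lines were larger than the spread between arrays.

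Of the 18 member probe sets, 3 were higher and 3 were lower with v-src than with the empty vector over the lines, counting those with a limma adjusted p under 0.05. Over all 45037 probe sets tested the same rule called 6.21% (3.14% higher and 3.08% lower). The 3 lower ones were all of Egfr, and the 3 higher ones were of Errfi1 and Btc. By leading probe sets 1 of 7 genes was higher and 0 lower, where 7.91% of all genes were called. For this comparison the arrays of a combination were averaged first, so that n = 3 lines, and changes are on the scale of log2(signal + 23), which understates the change of low signals. With c-myc against the empty vector, limma called 0 of 18 over the lines, where it called 7.94% of all probe sets (4.11% higher and 3.83% lower). At an unadjusted p under 0.05 there were 4, of which Ereg, Egfr 1435888_at and Egfr 1424932_at were lower and Egfr 1457563_at was higher. The share of all probe sets at that unadjusted threshold was not counted, so these 4 have no rate to be set against. Both comparisons use the same empty-vector arrays. Between v-src and c-myc, 5 of 18 were higher with v-src and 0 lower, against 12.3% of all probe sets (5.60% higher and 6.67% lower).

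Within the lines, v-src against the empty vector gave 5 higher and 3 lower member probe sets in WA, where 13.6% of all probe sets were called (6.70% higher and 6.91% lower). It gave 6 higher and 3 lower in WB, where 12.6% were called (6.16% higher and 6.42% lower), and 5 higher and 3 lower in WC, where 14.5% were called (6.92% higher and 7.59% lower). With c-myc, 0 member probe sets were higher and 8, of 4 genes, were lower in WA. There 18.5% of all probe sets were called (9.71% higher and 8.79% lower). In WB 4 were higher and 2 lower, where 12.5% were called (6.01% higher and 6.47% lower), and in WC 0 were higher and 3 lower, where 18.0% were called (9.24% higher and 8.77% lower). Without the 2 arrays that stood apart, the c-myc count in WC was 0 higher and 6 lower, and that for v-src over the lines was 3 higher and 2 lower. Over all probe sets the calls in that setting numbered 9189 and 2260, against 8110 and 2799 with all arrays.

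**Figure D1:**
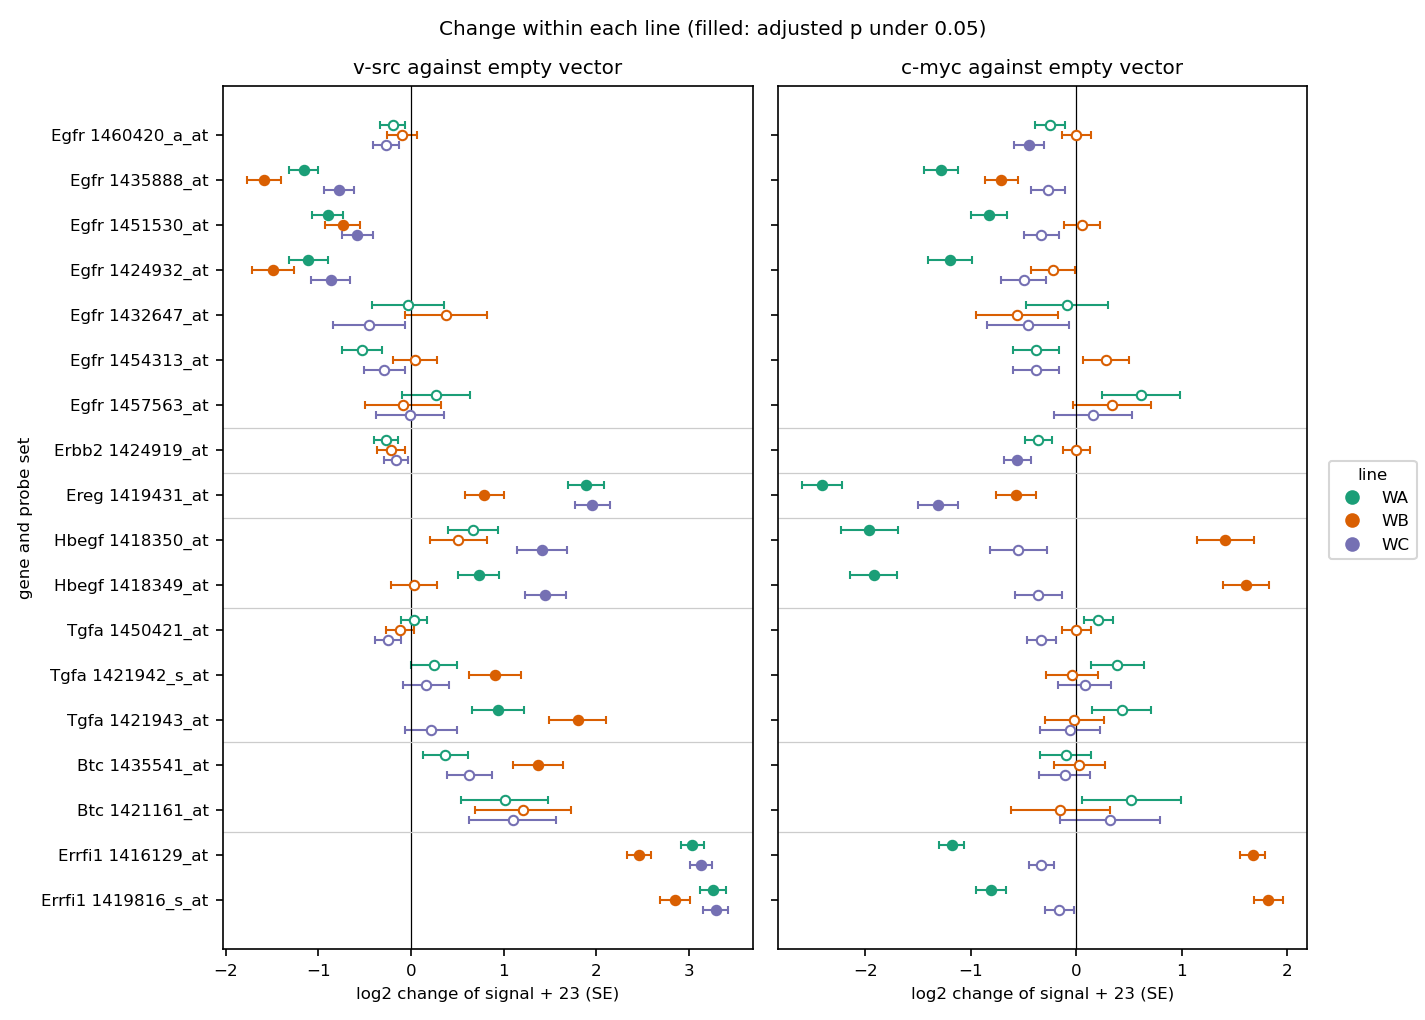
Change of each member probe set within each line on the log2(signal + 23) scale, with v-src (left) and with c-myc (right) against the empty vector; whiskers are standard errors and filled points passed an adjusted p of 0.05. Both Errfi1 probe sets lie right of 0 with v-src in all 3 lines, while with c-myc they lie left of 0 in WA and WC and at 1.67 and 1.82 in WB.

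Egfr, the receptor of all 5 ligands, was measured by 7 probe sets that did not move alike. Probe set 1435888_at had signals of 251, 276 and 344 in WA with v-src, 293, 243 and 255 in WA with c-myc, and 688, 611 and 719 in WA with the empty vector. In WB it had 214 and 267 with v-src, 422, 510 and 448 with c-myc, and 842, 656 and 806 with the empty vector. In WC it had 591, 701 and 601 with v-src, 1192, 924 and 674 with c-myc, and 1154, 1109 and 1024 with the empty vector. Every v-src array was below every empty-vector array of its line, and the c-myc arrays were also all below in WA and WB but overlapped the empty-vector arrays in WC. With v-src it fell by 1.17 on the log2 scale over the lines (SE 0.22, 2.26-fold, limma adjusted p = 0.018), and 1424932_at fell by 1.15 (SE 0.24, 2.22-fold, adjusted p = 0.0299). Probe set 1451530_at fell by 0.74 (SE 0.18, 1.67-fold, adjusted p = 0.0485), a call that was lost in 21 of 38 alternatives. Within lines its call in WB did not hold once WB v-src replicate 3 was removed (-0.51, adjusted p = 0.207), nor did that in WC once the array removed was WC empty replicate 1 (-0.46, adjusted p = 0.116) or WC v-src replicate 1 or 3 (0.0905 and 0.0705). The calls of 1435888_at and 1424932_at over the lines were also lost when any 1 line was left out, with adjusted p from 0.0531 to 0.132.

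The leading Egfr probe set, 1460420_a_at, did not share this fall. With v-src, WA arrays read 662, 796 and 812, WB arrays 778 and 783, and WC arrays 780, 993 and 878. With the empty vector, WA arrays read 867, 990 and 764, WB arrays 743, 940 and 843, and WC arrays 1348, 944 and 939. The arrays overlapped in every line, and the change over the lines was -0.19 (SE 0.11, limma adjusted p = 0.382). With c-myc it was called lower in WC alone, by 0.45 (SE 0.14, adjusted p = 0.0288), but this did not hold once WC empty replicate 1 was removed (-0.29, adjusted p = 0.232), nor without c-myc replicate 2 or 3 of that line (0.077 and 0.193), nor without an intensity trend (0.0558). The remaining 3 probe sets were dimmer and were not called in any comparison: group means were 132 to 259 for 1432647_at, 111 to 169 for 1454313_at and 10.6 to 34.8 for 1457563_at. The stretch of the Egfr transcript that each probe set detects was not used here, so the level of the receptor's RNA as a whole has no single value in these data.

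With c-myc, 1435888_at was lower in WA by 1.28 (SE 0.16) and in WB by 0.71 (SE 0.16), while its change in WC was -0.27 (SE 0.16, limma adjusted p = 0.305). Without WC c-myc replicate 1, the array with 1192, the change in WC was -0.46 (adjusted p = 0.0362). The c-myc effect on this probe set differed between the lines (F test over all 26 arrays, adjusted p = 0.0154, or 0.0599 without both arrays that stood apart). By their means, the 9 groups ran from WC with the empty vector at 1096 to WB with v-src at 240, with a gap between 591, the lowest array of WC with v-src, and 510, the highest of WB with c-myc. WA with v-src, WA with c-myc and WB with v-src, the 3 lowest groups, overlapped.

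The 250 bases before the annotated Egfr start (RefSeq, GRCm38.p6, chr11:16751953-16752202, plus strand) are shown because Egfr was the member with probe sets called lower with v-src over the lines. Capitals mark the matches found to the motifs searched, here an ETS motif (CCGGAA) at -119 and an SP1 box (GGGCGG) at -9, both read on the opposite strand, with the last base shown at -1.
Egfr: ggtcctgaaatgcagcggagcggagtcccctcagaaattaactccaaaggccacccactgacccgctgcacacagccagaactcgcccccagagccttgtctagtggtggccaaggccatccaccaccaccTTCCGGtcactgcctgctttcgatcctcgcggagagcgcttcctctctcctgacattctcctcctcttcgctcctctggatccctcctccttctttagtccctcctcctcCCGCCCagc

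Erbb2, the partner that lends kinase activity but binds no ligand, had 1 probe set (1424919_at). With v-src it read 499, 509 and 453 in the WA arrays, 332 and 356 in WB, and 566, 610 and 576 in WC. With the empty vector it read 613, 656 and 516 in the WA arrays, 420, 387 and 410 in WB, and 687, 623 and 653 in WC. The v-src arrays lay below all empty-vector arrays of their line, yet by little: -0.22 over the lines (SE 0.14, limma adjusted p = 0.439), and no line was called. With c-myc it read 444, 422 and 508 in the WA arrays, 337, 482 and 407 in WB, and 539, 428 and 356 in WC. It was lower with c-myc in WC by 0.56 (SE 0.13, 1.48-fold, adjusted p = 0.00319). The change was -0.36 in WA (SE 0.13, adjusted p = 0.0658, or 0.0326 without WA empty replicate 3) and 0.00 in WB (SE 0.13, adjusted p = 0.997). The order of the 9 groups ran from 654 in WC with the empty vector to 344 in WB with v-src, and neighbours in it overlapped except below WC with v-src (584) and below WB with the empty vector (406).

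Ereg, a ligand of low affinity that signals through Egfr and Erbb4, spanned 5.40 on the log2 scale over the 9 group means, more than any other member. Probe set 1419431_at measured 3479, 3140 and 2717 in WA with v-src, 168, 121 and 121 in WA with c-myc, and 844, 962 and 682 in WA with the empty vector. In WB it measured 3867 and 4178 with v-src, 1438, 1531 and 1702 with c-myc, and 2216, 2357 and 2360 with the empty vector. In WC it measured 6847, 6204 and 6972 with v-src, 474, 580 and 1096 with c-myc, and 1575, 1843 and 1695 with the empty vector. In all 3 lines the v-src arrays were the highest and the c-myc arrays the lowest, with no overlap between vectors.

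Against the empty vector, Ereg rose with v-src within each line, by 1.89 in WA (SE 0.19, limma adjusted p = 9.02e-08), 0.79 in WB (SE 0.21, adjusted p = 0.0113) and 1.96 in WC (SE 0.19, adjusted p = 3.34e-08). The rise was smaller in WB (F test of the difference between lines, adjusted p = 0.0165), and the call in WB was lost without either of its 2 v-src arrays, at adjusted p = 0.0623 and 0.104. Over the lines the change was 1.54 (SE 0.44, 2.92-fold, adjusted p = 0.0802), which did not pass, although it did without line WB (1.92, adjusted p = 0.0334). With c-myc it was lower by 2.41 in WA (SE 0.19, 5.33-fold, adjusted p = 1.31e-09), 0.57 in WB (SE 0.19, adjusted p = 0.0487) and 1.31 in WC (SE 0.19, adjusted p = 1.36e-05). The call in WB was lost in 24 of 34 alternatives. Over the lines the c-myc change was -1.43 (SE 0.44, adjusted p = 0.0893), which did not pass, although it did without line WB (-1.86, adjusted p = 0.0288). Set against each other, v-src was higher than c-myc by 2.98 over the lines (SE 0.44, 7.86-fold, adjusted p = 0.00469), a call lost without line WC (0.061).

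The Ereg groups ordered as WC, WB and WA with v-src at 6674, 4022 and 3112, then WB with the empty vector at 2311. Below them came WC with the empty vector at 1704 and WB with c-myc at 1557, which overlapped, then WA with the empty vector at 829 and WC with c-myc at 717, which overlapped, and WA with c-myc at 137. Lines with the empty vector already differed in Ereg (F test, limma adjusted p = 5.1e-06). In bulk RNA of this kind, fewer cells that make a transcript and less RNA per cell cannot be told apart.

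Hbegf, a heparin-binding ligand of Egfr and Erbb4, differed by line. Probe set 1418350_at measured 6574, 6497 and 5855 in WA with v-src, 1023, 1115 and 879 in WA with c-myc, and 3472, 3593 and 4945 in WA with the empty vector. In WB it measured 2539 and 2307 with v-src, 4700, 4162 and 4782 with c-myc, and 1625, 1846 and 1624 with the empty vector. In WC it measured 4190, 3443 and 3441 with v-src, 421, 1108 and 1661 with c-myc, and 1030, 1470 and 1684 with the empty vector. The v-src arrays were above the empty-vector arrays in each line, and the c-myc arrays were below them in WA, above them in WB and overlapping in WC.

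With c-myc, Hbegf 1418350_at was 3.88-fold lower in WA (log2 change -1.96, SE 0.27, limma adjusted p = 9.03e-06) and 2.66-fold higher in WB (1.41, SE 0.27, adjusted p = 0.00087). In WC the change was -0.55 (SE 0.27, adjusted p = 0.2). Without WC c-myc replicate 1, the array with 421, the change in WC was -0.01 (adjusted p = 0.984), and without replicate 3, the array with 1661, it was -0.97 (adjusted p = 0.00727). The second probe set, 1418349_at, gave -1.92, 1.61 and -0.36 in WA, WB and WC (SE 0.22 each), with -0.23 in WC without replicate 1. Both probe sets differed between lines in their c-myc effect (F test adjusted p = 1.63e-05 for 1418350_at and 3.79e-07 for 1418349_at). With v-src, both probe sets rose in WC, by 1.41 (SE 0.27, adjusted p = 0.000581) and 1.45 (SE 0.22, adjusted p = 2.9e-05). The leading one changed by 0.67 in WA (SE 0.27, adjusted p = 0.118, or 0.83 and 0.001 without both arrays that stood apart) and 0.51 in WB (SE 0.31, adjusted p = 0.372), where it was called (adjusted p = 0.0379) only without the 2 arrays that stood apart. The call of 1418349_at in WA (0.73, SE 0.22, adjusted p = 0.0273) was lost without WA empty replicate 1 or 2 and without WA v-src replicate 1 or 2 (0.0608 to 0.127). Over the lines the v-src change of 1418350_at was 0.86 (SE 0.60, adjusted p = 0.456). The highest group was WA with v-src at 6309, and the lowest 4 of the 9, from WB with the empty vector at 1698 to WA with c-myc at 1006, overlapped each with the next.

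Tgfa, the ligand named for its role in transformed cells, was low on all 3 of its probe sets. The leading one, 1450421_at, had group means of 292 to 376 and was called in no comparison, with all 9 of its changes between -0.33 and 0.21. Probe set 1421943_at with v-src read 152, 108 and 182 in the WA arrays, 375 and 370 in WB, and 116, 163 and 115 in WC. With the empty vector it read 85.8, 78.2 and 37.7 in the WA arrays, 126.5, 88.3 and 65.6 in WB, and 142.7, 89.9 and 98.5 in WC. The v-src arrays were separate from the empty-vector arrays in WA and WB and overlapped them in WC. The probe set was higher in WB by 1.80 (SE 0.31, 3.47-fold, limma adjusted p = 0.00019) and in WA by 0.94 (SE 0.28, adjusted p = 0.0244), and its change in WC was 0.22 (SE 0.28, adjusted p = 0.742). WA no longer passed when its empty-vector replicate 3 was left out (0.67, adjusted p = 0.161), nor without WA v-src replicate 1 or 3 (0.0764 and 0.115). The F test of its v-src effect between lines gave an adjusted p of 0.059, or 0.0316 without both arrays that stood apart. Probe set 1421942_s_at was called in WB alone, 0.91 higher with v-src (SE 0.28, adjusted p = 0.0357).

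Btc, betacellulin, also binds both Egfr and Erbb4. Probe set 1435541_at with v-src read 219, 200 and 214 in the WA arrays, 477 and 501 in WB, and 288, 244 and 326 in WC. With the empty vector it read 206, 164 and 116 in the WA arrays, 220, 145 and 165 in WB, and 206, 136 and 192 in WC. With c-myc it lay between 111 and 234. The 2 WB arrays with v-src were the highest of the 26, and v-src arrays overlapped the empty-vector arrays in WA but not in WC. Btc 1435541_at was higher with v-src in WB by 1.37 (SE 0.27, 2.59-fold, limma adjusted p = 0.000724), and over the lines by 0.79 (SE 0.21, adjusted p = 0.0674), which did not pass. The dimmer probe set 1421161_at, with group means of 26.9 to 182 and empty-vector arrays as low as 2.3 in WA, was called higher over the lines (1.10, SE 0.21, adjusted p = 0.0208) but in none of the lines alone, where adjusted p was 0.138 to 0.177. That call was lost without WA c-myc replicate 2 (0.0518) and when any 1 line was left out (0.0931 to 0.14). Against c-myc, v-src was higher for both (0.85 and 0.88, SE 0.21 each, adjusted p = 0.0342 and 0.0302), a call each lost when any 1 line was left out. That of 1435541_at was also lost without both arrays that stood apart (0.0605) and without WA c-myc replicate 3 (0.0516). That of 1421161_at was also lost without c-myc replicate 2 of WA (0.143) or of WC (0.136), arrays that read 9.3 and 3.2. It was lost too with a pseudocount of 100 (0.0511) and with a random block (0.0516).

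Ereg and Btc lie in the same row of genes, with Areg between them. In the RefSeq annotation of GRCm38.p6, Epgn, Ereg, Areg and Btc are 4 consecutive protein-coding genes on mouse chromosome 5. Over the 9 group means Ereg and Btc correlated at 0.69, a description over points that share lines and vectors. Epgn, named here for its place and after its value was seen, changed by 0.33 with v-src over the lines (limma adjusted p = 0.417).

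**Figure D2:**
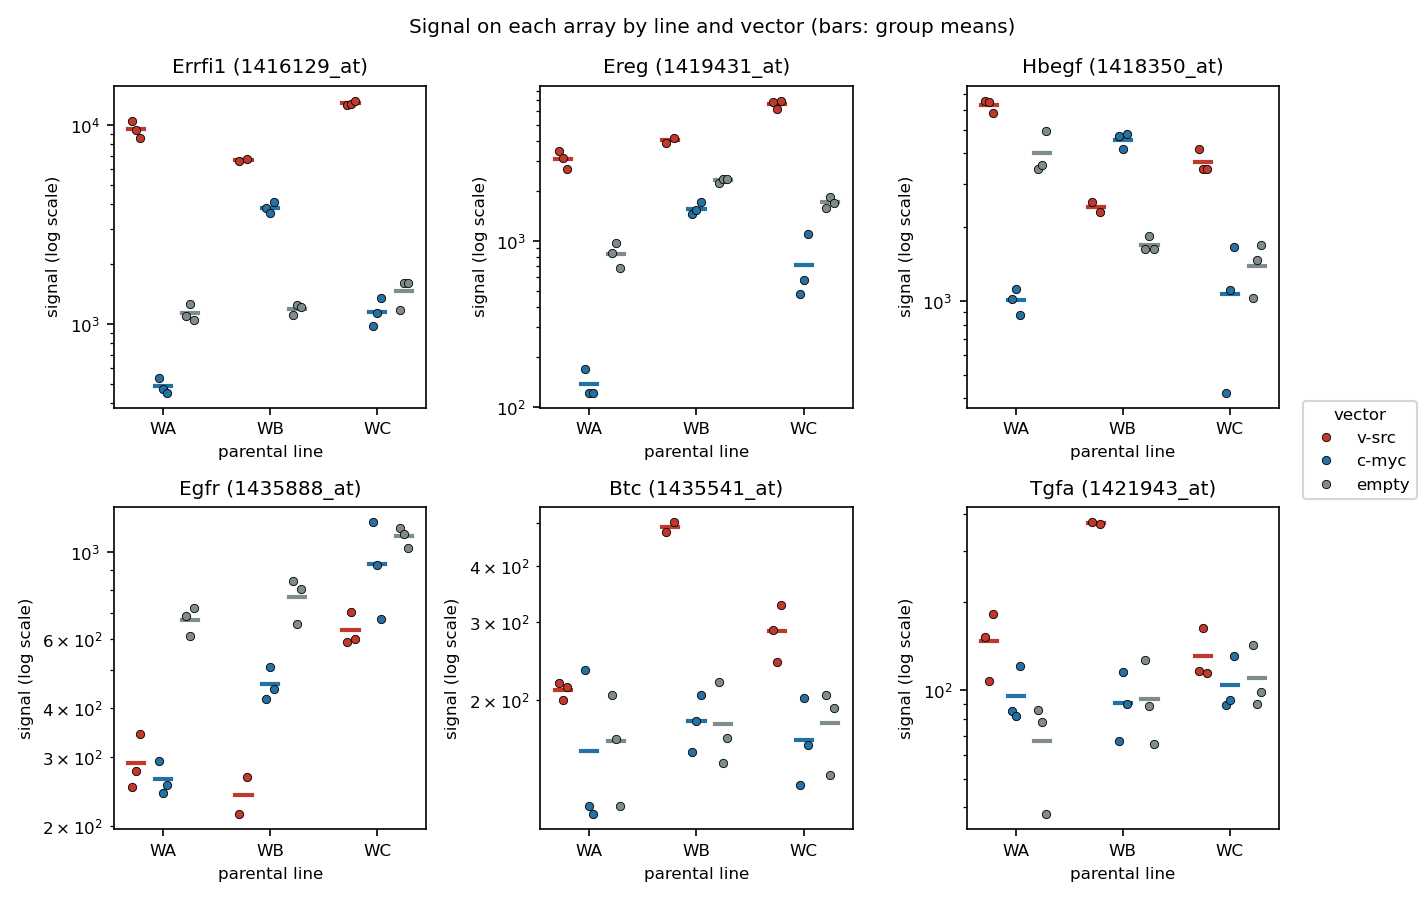
Signal on each of the 26 arrays (log axis) for 6 member probe sets, by parental line and vector (v-src, c-myc, empty). Points are arrays and bars are group means. Egfr is shown by 1435888_at and Tgfa by 1421943_at, not by their leading probe sets, which were not called with v-src. Errfi1 with v-src lies between 6552 and 13207, above all other arrays, and Hbegf with c-myc lies at 4162 to 4782 in WB but at 421 to 1661 in WA and WC.

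Errfi1, the feedback inhibitor of the receptor, had the largest changes of the set with v-src against the empty vector over the lines. Probe set 1416129_at measured 10483, 9353 and 8548 in WA with v-src, 538, 470 and 450 in WA with c-myc, and 1090, 1261 and 1046 in WA with the empty vector. In WB it measured 6552 and 6705 with v-src, 3807, 3590 and 4115 with c-myc, and 1104, 1245 and 1222 with the empty vector. In WC it measured 12486, 12658 and 13207 with v-src, 979, 1130 and 1342 with c-myc, and 1170, 1600 and 1596 with the empty vector. Every v-src array was above every array without v-src, in any line, and the nearest were the 3 WB arrays with c-myc.

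Over the lines, Errfi1 rose with v-src by 2.87 on the log2 scale (SE 0.54, 7.33-fold, limma adjusted p = 0.0208), and its second probe set, 1419816_s_at, by 3.13 (SE 0.49, 8.77-fold, adjusted p = 0.0103). By size of rise these were numbers 41 and 25 of 45037 probe sets. Within lines the leading probe set rose by 3.04 in WA (SE 0.12, adjusted p = 9.49e-15), 2.46 in WB (SE 0.13, adjusted p = 3.91e-12) and 3.13 in WC (SE 0.12, adjusted p = 4.85e-15). The call over the lines was lost for 1416129_at without line WA (adjusted p = 0.0703) and for both probe sets without line WC (0.139 and 0.0883), where only 2 lines remain. The difference of the v-src effect between lines passed for 1416129_at (F test adjusted p = 0.0352) and not for 1419816_s_at (adjusted p = 0.412). The call for 1416129_at was lost without WB v-src replicate 2 or 3 (0.163 and 0.115), WB empty replicate 2 or 3 (0.0929 and 0.0857), WA v-src replicate 2 (0.0507) or any of the WC v-src arrays (0.0516 to 0.0632), and without an intensity trend (0.105).

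With c-myc, Errfi1 moved in opposite directions in WA and WB. It was 2.27-fold lower in WA (log2 change -1.18, SE 0.12, limma adjusted p = 5.73e-08) and 3.18-fold higher in WB (1.67, SE 0.12, adjusted p = 9.42e-10), while in WC the change was -0.33 (SE 0.12, adjusted p = 0.0512, or -0.48 and 0.00399 without WC empty replicate 1). The second probe set gave -0.81, 1.82 and -0.16 (SE 0.14 each). The difference of the c-myc effect between lines had adjusted p = 1.36e-09 for the leading probe set, number 1 of 45037 by p, and 2.88e-08 for the second, number 11. It kept its call in all 34 alternatives for 1416129_at (highest adjusted p 8.43e-08). The test takes its spread from arrays, so it does not tell a property of the line from one of a single infection or culture. Over the lines the c-myc change was 0.05 (SE 0.54, adjusted p = 0.97), the mean of these opposite values.

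With the empty vector, Errfi1 group means were 1132, 1191 and 1455 in WA, WB and WC, their arrays overlapped, and the F test over these lines gave an adjusted p of 0.0667 for the leading probe set (0.0152 for 1419816_s_at). The full order ran from WC, WA and WB with v-src at 12783, 9461 and 6629, none overlapping, to WB with c-myc at 3837. After a gap came WC and WB with the empty vector, WC with c-myc at 1150 and WA with the empty vector, all overlapping, and WA with c-myc at 486 last.

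RefSeq (GRCm38.p6) lists 2 starts for Errfi1 on the plus strand of chromosome 4, and the 250 bases before each are shown because Errfi1 had these changes. The first lies at chr4:150853546-150853795 and the second at chr4:150854820-150855069. Capitals mark every match to a motif searched on both strands: TGACGTCA (CRE), TGANTCA (AP-1), CACGTG (E-box), TTCNNNGAA (GAS), GGGCGG (SP1 box), CCGGAA (ETS) and the CArG box.
Errfi1 first start: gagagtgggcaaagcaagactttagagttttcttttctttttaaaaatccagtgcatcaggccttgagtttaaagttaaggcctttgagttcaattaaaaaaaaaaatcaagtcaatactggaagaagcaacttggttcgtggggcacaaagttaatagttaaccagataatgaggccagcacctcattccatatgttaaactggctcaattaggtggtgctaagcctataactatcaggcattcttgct
Errfi1 second start: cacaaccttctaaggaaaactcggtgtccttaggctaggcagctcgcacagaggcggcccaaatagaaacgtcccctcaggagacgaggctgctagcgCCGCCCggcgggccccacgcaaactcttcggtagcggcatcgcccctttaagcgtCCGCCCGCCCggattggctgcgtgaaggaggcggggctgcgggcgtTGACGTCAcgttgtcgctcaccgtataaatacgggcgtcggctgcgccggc

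The window of the second Errfi1 start held a full CRE that begins at -51, and 3 SP1 boxes on the opposite strand, at -152, -97 and -93, of which the last 2 overlap. No match was found in the window of the first start, which is poor in G and C (38.0%, against 64.8% for the second and a median of 52.4% over all windows). A CRE stood in 1.55% of the 32851 promoter windows in the table, an SP1 box in 32.7% and an ETS motif in 12.0%. AP-1, E-box, GAS and CArG motifs, held by 6.75%, 6.02%, 7.02% and 1.47% of all windows, had no match in the windows of the 6 members with an entry. Areg, whose expression was not analysed here, also held a CRE, at -61. These are matches of letters, not measured binding.

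The window of Btc, shown because the dimmer of its 2 probe sets was the ligand probe set called higher with v-src over the lines (chr5:91402995-91403244, minus strand), held none of the motifs searched.
Btc: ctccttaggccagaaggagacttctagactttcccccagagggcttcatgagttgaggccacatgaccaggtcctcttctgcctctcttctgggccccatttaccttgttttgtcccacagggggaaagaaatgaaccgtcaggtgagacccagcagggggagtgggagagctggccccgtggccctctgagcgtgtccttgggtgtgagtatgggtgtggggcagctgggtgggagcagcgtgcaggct

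Of the vectors' effects, that of c-myc differed across WA, WB and WC for 6 of the 18 member probe sets (33.3%), where 6.41% of all 45037 did, and these were both of Errfi1, both of Hbegf, Ereg and Egfr 1435888_at. The v-src effect differed for 3 of 18 (16.7%), where 5.83% of all did, namely Ereg, Hbegf 1418349_at and Errfi1 1416129_at. Lines with the empty vector differed for 7 of 18 (38.9%), against 23.2% of all. Without the 2 arrays that stood apart these counts were 6 for c-myc, 6 for v-src and 7 for the empty vector. Over all probe sets the counts in that setting were 3948, 3294 and 10374, against 2888, 2624 and 10464 with all arrays.

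**Figure D3:**
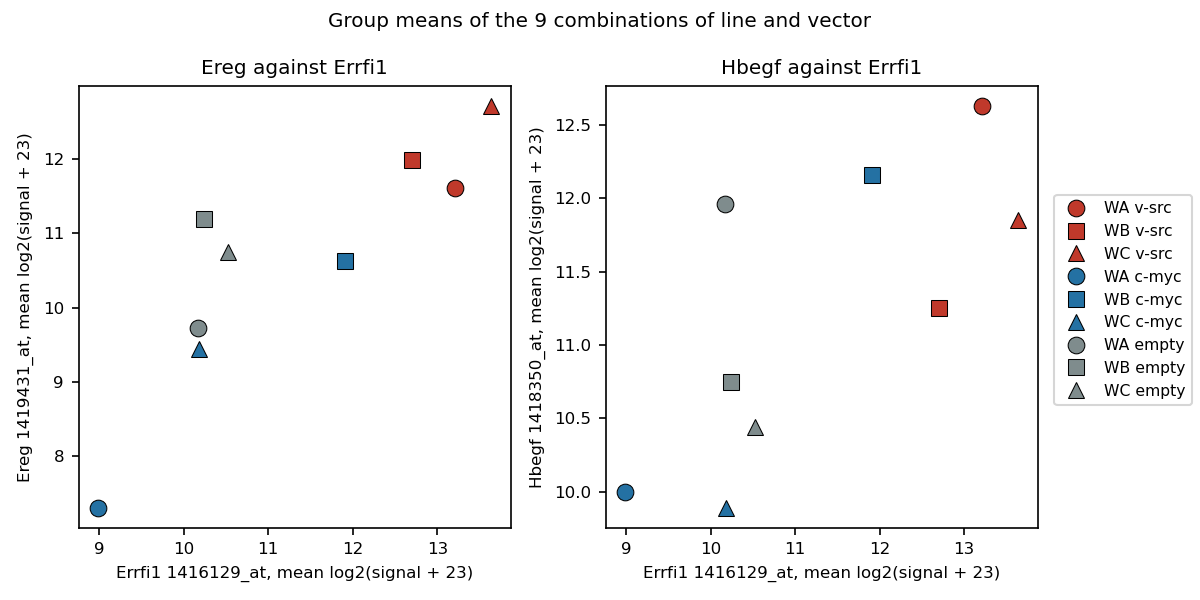
Group means of Ereg (left) and Hbegf (right) against those of Errfi1 on the log2(signal + 23) scale for the 9 combinations of line (shape) and vector (colour). WB with c-myc, the blue square, lies right of the other c-myc groups in both panels; correlations over the 9 means are 0.86 and 0.73.

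Over the 9 group means Errfi1 correlated at 0.86 with Ereg, 0.73 with Hbegf and 0.71 with Btc, and at 0.00 with the leading Egfr probe set. Among 13011 other genes, those most like Errfi1 were Lrig2 (r = 0.963), Plaur, the urokinase receptor (0.947), and Bcl3 (0.946). For Ereg they were Sting1 (0.98), Wbp4 (0.964) and Frmd6 (0.955). For Hbegf they were Cacng2 (0.942), Parp8 (0.939) and Creb5 (0.921), and for Btc Gch1 (0.978), Scamp1 (0.97) and Lcn2 (0.958). These are descriptions over 9 points that share lines and vectors, with the best of many candidates picked. The size of a candidate's own change played no part, and Lrig2 changed by 0.33 with v-src over the lines (SE 0.15, limma adjusted p = 0.25). The leading probe sets of Egfr, Erbb2 and Tgfa spanned 0.53, 0.88 and 0.33 over the 9 means and were not ranked in this way.

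The rest of the pathway was described by lists of 67 genes, of which 62 had a single-gene probe set, each counted once by its leading probe set. The lists were chosen with earlier results of these data known. Shares of all genes given beside their counts are thus a description and not an independent test. Among leading probe sets of all 18193 genes, 7.91% were called with v-src (4.05% higher and 3.86% lower) and 10.5% with c-myc (5.21% higher and 5.33% lower) against the empty vector over the lines, and median changes were 0.03 and 0.04. Between v-src and c-myc it was 15.7% (7.53% higher and 8.16% lower). Of the other receptors, Erbb3 and Erbb4, 0 of 2 were called in either comparison by limma. Of the other ligands, 0 of 6 rose and 1 fell with each vector: Nrg1, a neuregulin that binds Erbb3 and Erbb4, by 1.31 with v-src (SE 0.23, adjusted p = 0.0149) and by 1.09 with c-myc (SE 0.23, adjusted p = 0.0257).

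Of 8 genes for ligand shedding, 0 were called with v-src and 1 fell with c-myc over the lines: Adam9, a metalloprotease, by 1.10 (SE 0.10, limma adjusted p = 0.00303). Between v-src and c-myc 3 of 8 differed, all higher with v-src. Adam9 was higher by 0.99 (SE 0.10, adjusted p = 0.00127), Adam8 by 1.91 (SE 0.47, adjusted p = 0.0332) and Frmd8, a partner of the iRhom proteins, by 0.74 (SE 0.11, adjusted p = 0.00509).

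Of 12 measured genes for adaptors, Ras and the ERK cascade, 2 rose with v-src over the lines. Map2k1, which codes for the ERK kinase MEK1, rose by 0.87 (SE 0.08, limma adjusted p = 0.00194), and the adaptor Grb2 by 0.79 (SE 0.11, adjusted p = 0.00747). With c-myc 0 rose and 1 fell, Map2k1 by 0.37 (SE 0.08, adjusted p = 0.0287). Between v-src and c-myc the same 2 genes were higher with v-src, Map2k1 by 1.23 (adjusted p = 0.00029) and Grb2 by 0.74 (adjusted p = 0.00565).

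Of 16 genes for receptor turnover and inhibition, 3 rose and 2 fell with v-src. The ubiquitin ligase Cblb rose by 1.12 (SE 0.16, limma adjusted p = 0.00774), and the phosphatases Ptprj and Ptpn12 by 0.82 and 0.65 (SE 0.20 and 0.16, adjusted p = 0.0483 and 0.0495). Lrig3 fell by 0.85 with v-src (SE 0.13, adjusted p = 0.00948) and was the only one to fall with c-myc, by 0.62 (SE 0.13, adjusted p = 0.0267). Socs4, named after its value was seen to complete the count, changed by -0.45 (SE 0.10, adjusted p = 0.0408). The Ptprj call was lost in 21 and the Ptpn12 call in 19 of 39 alternatives, and without the 2 arrays that stood apart 1 rose and 1 fell with v-src. Against c-myc, 5 of 16 were higher with v-src and 0 lower, led by Cblb (1.75, adjusted p = 0.000943), the receptor inhibitor Lrig1 (1.37, adjusted p = 0.0253), Ptprj (1.12, adjusted p = 0.00915) and Socs5 (1.05, adjusted p = 0.00907).

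Growth factor response genes, which ERK signalling and immediate early transcription are known to induce, numbered 18, all measured. Over the lines 2 of 18 rose with v-src, Fosl1, an AP-1 subunit, by 1.73 (SE 0.34, limma adjusted p = 0.0245) and Ier3 by 1.49 (SE 0.33, adjusted p = 0.0355), with a median of 1.00 over the list. With c-myc 0 rose and 1 fell, the phosphatase Dusp1, by 1.33 (SE 0.31, adjusted p = 0.0351), with a median of -0.23. Against c-myc, 5 of 18 were higher with v-src and 0 lower, led by Dusp6 (2.39, adjusted p = 0.0356), Plaur (1.73, adjusted p = 0.0186), Ier3 (1.64, adjusted p = 0.0151) and Etv5 (1.47, adjusted p = 0.00765). Within lines v-src gave 11 higher and 1 lower in WA, 9 and 0 in WB and 12 and 2 in WC, where 17.6% (8.53% higher, 9.03% lower), 16.5% (7.92% higher, 8.59% lower) and 19.2% (9.28% higher, 9.95% lower) of all genes were called. Effects of v-src in WA, WB and WC differed for 9 of 18, against 7.92% of all genes.

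With c-myc the list differed by line. In WA 0 rose and 13 fell (median -0.89), in WB 12 rose and 2 fell (median 1.17), and in WC 1 rose and 9 fell (median -0.56), where 24.4% (12.0% higher, 12.4% lower), 16.9% (7.71% higher, 9.22% lower) and 24.4% (12.2% higher, 12.2% lower) of all genes were called. Effects of c-myc in WA, WB and WC differed for 15 of 18, against 9.28% of all genes, in a list chosen with earlier results known. Dusp6, a phosphatase that switches off ERK, changed by -1.81, 1.36 and -0.70 in WA, WB and WC (SE 0.16 each, limma adjusted p = 1.12e-08 for the difference). Dusp5, another ERK phosphatase, changed by -2.49, 1.73 and -0.96 (SE 0.27 each, adjusted p = 3.99e-07). Dusp1 was lower in each line, by 2.19, 0.66 and 1.15 (SE 0.16 each). Dusp5 was picked for this after its values were seen. Without the 2 arrays that stood apart the counts were 0 and 13 in WA, 12 and 2 in WB and 1 and 7 in WC, with 16 differing.

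The 8 epithelial markers had a median log2 change of 0.26 with v-src and 0.01 with c-myc against the empty vector over the lines. Within lines 1 rose in WA, 0 in WB and 1 in WC with v-src, and 2 rose in WA, 0 in WB and 1 in WC with c-myc, while 1 fell with v-src in WC and 1 fell with c-myc in each of WA and WC. The fibroblast marker sums given above were lower in every v-src group, and in every c-myc group, than in any empty-vector group. Mouse Myc itself changed with c-myc by -3.87 in WA, -1.46 in WB and -2.66 in WC (SE 0.14 each). The part of any of these in the changes of the members was not tested.

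**Figure D4:**
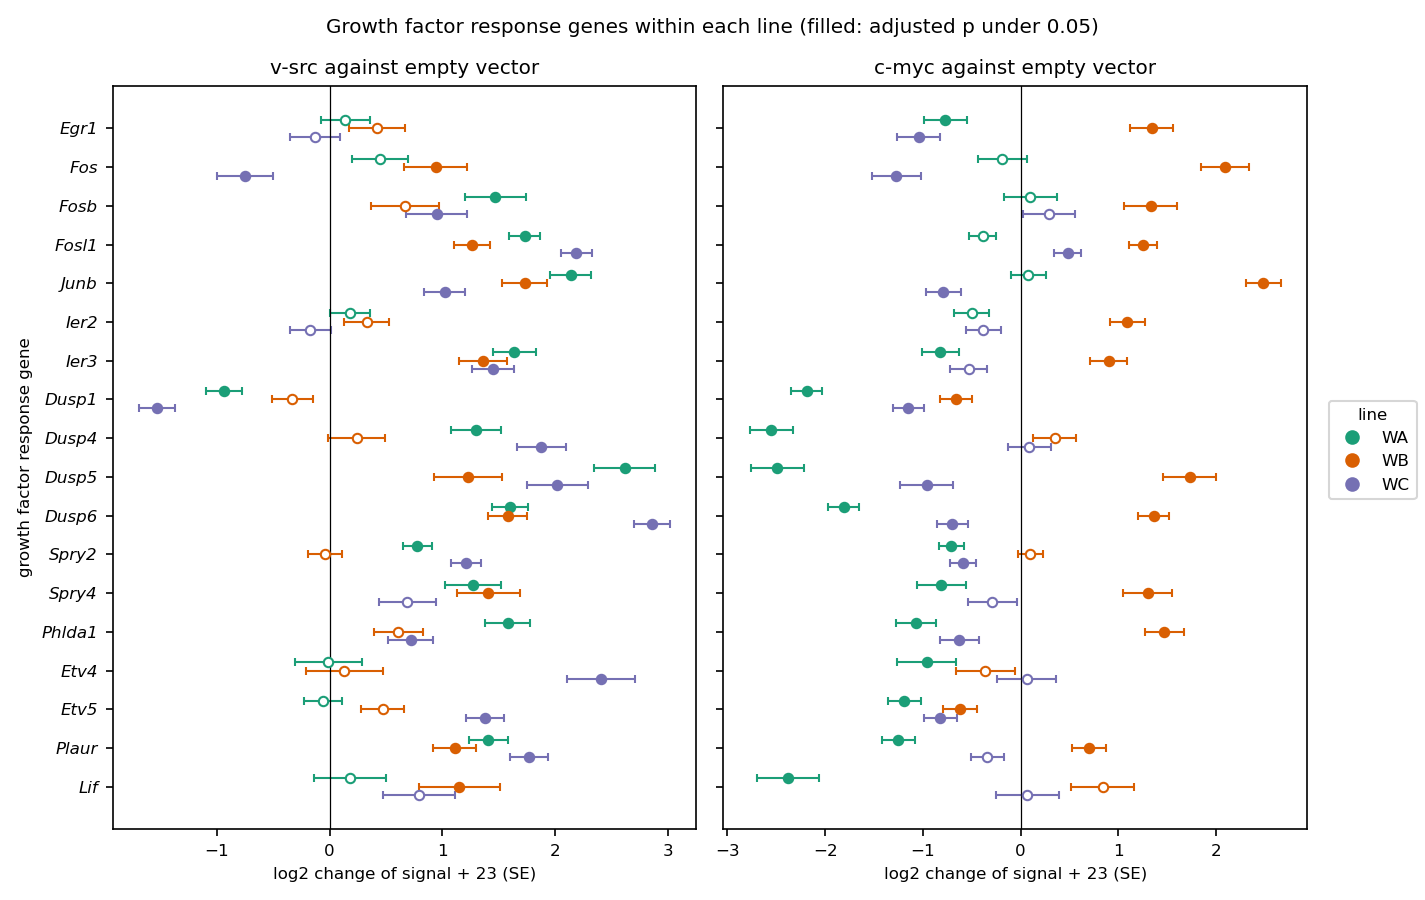
Change of 18 growth factor response genes within each line, with v-src (left) and c-myc (right) against the empty vector, on the log2(signal + 23) scale; whiskers are standard errors and filled points passed an adjusted p of 0.05. With c-myc, 12 genes rose in WB and 13 fell in WA, and with v-src 9 to 12 rose in each line.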

How the data were processed

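The samples were 26 arrays, and the authors deposited 1 linear intensity per probe set and array, which the submitters' processing notes attribute to MAS5; its version, detection calls and array scaling steps are not given in the sources used here. Every array had a mean intensity of 500 once the top and bottom 2% of its values were dropped. The number of arrays limits the precision. Groups and replicate numbers came from titles and characteristics; the free-text description names another material and was not used. Of 45101 probe sets, 64 controls were left out, and of the other 45037, 34945 had 1 gene, 932 had several and 9160 were not named. Genes were named from the platform annotation, and 0 sample columns were left unused.

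Signals were turned into log2(signal + 23), the pseudocount being the 20th percentile of all values. All 45037 probe sets, unfiltered, entered limma 3.58.1 (R 4.3.3), with the variance trended on intensity and p-values adjusted by Benjamini-Hochberg (threshold 0.05). Over the lines, 9 averages were fitted with line and vector (4 residual and 4.4 prior degrees of freedom), so an SE there pools the 3 vectors. Comparisons within lines used 9 group means over 26 arrays (residual degrees of freedom 17, prior 6.2). F tests compared effects between lines against the same spread between arrays. The fit was tested on simulated data.

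The members and gene lists were chosen with earlier results of these data known. All single-gene probe sets of the members are described. From each list, up to 4 called genes of largest change over the lines are named, and for members spanning over 1 on the log2 scale the 3 most correlated genes above the 40th percentile of mean log2. Motifs were searched in RefSeq promoter windows, found for 6 of 8 members. Alternatives changed the pseudocount, normalization, filter, variance trend, probe set choice, unit of replication and arrays or lines included.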

Additional observations from a re-analysis of the deposited data

Results flagged for a closer look

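For 9 pairs of member probe set and vector, the vector's effect differed between the parental lines by the F test of limma, adjusted over all 45037 probe sets. With c-myc these were Errfi1 1416129_at (adjusted p = 1.36e-09) and 1419816_s_at (2.88e-08), which fell in WA, rose in WB and were not called in WC. Hbegf 1418349_at (3.79e-07) and 1418350_at (1.63e-05) fell in WA, rose in WB and were not called in WC. Ereg 1419431_at (0.000255) was lower in all 3 lines, and WA changed by -2.41, WB by -0.57 and WC by -1.31. Egfr 1435888_at (0.0154) was lower in WA and WB, with a change of -0.27 in WC.

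With v-src the difference between lines passed for Ereg 1419431_at (adjusted p = 0.0165), Hbegf 1418349_at (0.0246) and Errfi1 1416129_at (0.0352). In each of these the change was smallest in WB, at 0.79 for Ereg, 0.03 for Hbegf and 2.46 for Errfi1, the combination with 2 arrays. Each of the 3 lost its call when 1 of these WB arrays was left out: Ereg at 0.112 and 0.0593, Hbegf at 0.123 without replicate 3, and Errfi1 at 0.163 and 0.115. Without an intensity trend all 3 calls were also lost (0.0519 for Ereg, 0.0665 for Hbegf and 0.105 for Errfi1). The Hbegf call was lost as well without WB empty replicate 2, WC empty replicate 2 or WC v-src replicate 1 or 3 (0.0504 to 0.058), and the Errfi1 call without WB empty replicate 2 or 3, WA v-src replicate 2 or any WC v-src array (0.0507 to 0.0929). Egfr 1435888_at lost its c-myc call without both arrays that stood apart (0.0599).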

How the results depend on the processing

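Over all alternatives 0 results for the members reversed: 7231 kept their side of the threshold, 101 gained and 126 lost a call. The 7231 include results that were not called and stayed so. They also include changes within 1 line when an array of another line was left out, which leaves the change as it was. The total therefore does not measure how well calls held. The main counts of called probe sets were 2799 for v-src, 3578 for c-myc and 5526 for v-src against c-myc over the lines. Without an intensity trend they were 1739 for v-src and 1568 for c-myc. With the 26 arrays as separate values they were 9500, 10575 and 11657, with a random block 7500, 8636 and 9993, and with the replicate block 9109, 10297 and 11430. Without line WA they were 958, 241 and 2155, without WB 733, 1560 and 2704, and without WC 717, 210 and 1407, with 2 lines left to fit. With 1 probe set per gene above the 40th percentile of mean log2, where fewer were tested, counts were 1749 for v-src and 3325 for v-src against c-myc over the lines, 3560, 3320 and 3765 for v-src and 4889, 3511 and 4837 for c-myc in WA, WB and WC, and 5848 between lines with the empty vector.

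Leaving out 1 array gave 2415 to 2863 for v-src, 3143 to 3682 for c-myc and 5046 to 5628 for v-src against c-myc over the lines. Within WA, WB and WC the ranges were 4511 to 6566, 3196 to 6055 and 5305 to 6902 for v-src, and 6845 to 8692, 4215 to 6062 and 6516 to 8638 for c-myc. The lowest v-src count in WB, 3196 against 5667, came without WB v-src replicate 2. Differences between lines ranged over 1785 to 3084 for v-src, 2231 to 3912 for c-myc and 9361 to 11020 with the empty vector.

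Replicate numbers did not clearly pair the arrays: same-numbered arrays of a line deviated together with a median correlation of -0.01, and 5 of 25 such pairs were over 0.1. For differently numbered arrays of a line the median was 0 and 4 of 50 pairs were over 0.1. Leaving out both arrays that stood apart was chosen after seeing the data. Causes of these shifts were not tested, and fewer probe sets or lines entered some of these fits. With that percentile as the only filter, the v-src count over the lines was 3411. Low probe sets such as Btc 1421161_at and Egfr 1457563_at lie below it.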
